A study of Mus musculus with 6 samples.

Results

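The S100 genes encode small EF-hand proteins that bind calcium. The 8 described here (S100a8, S100a9, S100a4, S100a6, S100a10, S100a11, S100a13 and S100a1) were taken by symbol from a table of 14992 genes, which holds 13 genes of the S100 family. RNA was sequenced from whole bone marrow of irradiated C57/BL6 mice that had been transplanted with bone marrow of Dnmt3a knockout mice. The inhibitor group (3 libraries, replicates 1, 3 and 5) came from recipients given a PI3Kalpha/beta inhibitor at 75 mg/kg for 21 days. The vehicle group (3 libraries, replicates 1, 2 and 3) came from recipients given vehicle over the same period. Both groups thus carried the Dnmt3a knockout and the transplant, and no group with intact Dnmt3a was compared. The labels call the treated cells leukemic and give neither the age of the mice, how Dnmt3a was deleted, nor how many host cells the recipients kept.

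An S100 protein usually works as a dimer. Calcium opens each subunit and exposes a surface that grips a target protein, so the family passes calcium signals on to the cytoskeleton, membranes and enzymes. S100a8 and S100a9 pair to form calprotectin, a leading cytosolic protein of neutrophils, which withholds zinc and manganese from microbes and acts as an alarm signal through Tlr4 and Ager when released. In bone marrow both are made in quantity as neutrophil precursors mature, and monocytes make them too.

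All 8 genes lie on chromosome 3 of GRCm38 (mm10), in a pair of clusters. S100a1 (90511034 to 90514392, minus strand), S100a13 (90514435 to 90524581, plus), S100a4 (90603771 to 90606045, plus), S100a6 (90612882 to 90624181, plus), S100a8 (90668978 to 90670035, plus) and S100a9 (90692632 to 90695721, minus) span 184688 bases. S100a11 (93520488 to 93526287, plus) and S100a10 (93555080 to 93564643, plus) lie 2824766 bases beyond S100a9. The gene models of S100a1 and S100a13 point away from each other across 42 bases. S100a8 and S100a9 are separated by 22596 bases and are read from opposite strands.

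The promoters of S100a8 and S100a9 are shown because their RNA levels followed each other closely across the libraries, and that of S100a4 because it lies in the same cluster while its levels overlapped between the groups. RefSeq (GRCm38.p6) gives these bases from 120 before to 20 after the annotated start, at chr3:90668951-90669090 on the plus strand, chr3:90695702-90695841 on the minus strand and chr3:90603650-90603789 on the plus strand, each 5′ to 3′ in the direction of the gene. Capitals mark the letters TATAAA, the core of a TATA box.
S100a8: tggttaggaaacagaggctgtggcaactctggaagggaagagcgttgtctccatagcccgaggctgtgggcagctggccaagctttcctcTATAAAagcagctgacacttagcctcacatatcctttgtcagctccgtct
S100a9: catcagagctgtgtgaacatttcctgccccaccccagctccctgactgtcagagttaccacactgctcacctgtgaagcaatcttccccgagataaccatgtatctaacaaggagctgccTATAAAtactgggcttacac
S100a4: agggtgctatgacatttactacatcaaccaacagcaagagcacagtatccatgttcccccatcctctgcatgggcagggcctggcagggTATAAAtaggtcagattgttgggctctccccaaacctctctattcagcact
RefSeq promoters of 300 bases were matched for 7 of the 8 genes. TATAAA on either strand was found in 3 of these 7 (S100a8, S100a9 and S100a4), against 13.6% of 32851 promoters. Its first base lay at -30 from the annotated start in S100a8 and at -31 in S100a4, while in S100a9 it began at the annotated start itself. The letters TTNNGNAA, a core that C/EBP factors can bind, were in S100a8 and S100a9 and in 40.7% of all promoters. GAGGAA, a PU.1 core, was in S100a8, S100a4 and S100a11 and in 28.3% of all promoters, and GGGCGG, a GC box, was in S100a9 and S100a11 and in 35.7% of all promoters. All were searched on both strands, none of the matches in these genes overlapped another, and a match describes letters only.

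Total counts ran from 28198638 to 35299105 in inhibitor libraries and from 33762431 to 59384880 in vehicle libraries. Dnmt3a was at 20.2, 15.4 and 15.5 CPM (counts scaled to library size) in inhibitor libraries 1, 3 and 5 and at 24.9, 17.3 and 18.9 CPM in vehicle libraries 1, 2 and 3, and a count over the whole gene does not show whether an exon was deleted. The pan-leukocyte markers (Ptprc, Spn, Cd53, Laptm5 and Coro1a) were present in every library, summing to 3561 to 5049 CPM in inhibitor libraries and 3296 to 4110 CPM in vehicle libraries. Vehicle 1 stood apart, with 20 macrophage markers summing to 10612 CPM against 2907 and 3226 CPM in the other vehicle libraries, and a quality weight of 0.161 (limma). Values that change a call or direction, or move by over 1.5 times, without vehicle 1 are given both ways. The labels do not say that each library came from its own mouse, so p-values reflect only how far these libraries scatter, which may be technical. In bulk marrow, fewer cells of a type and less RNA per cell cannot be told apart.

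S100a8 and S100a9 made up nearly all of the family's RNA in both groups. Per length, in RPKM (scaled to library size and to the deposited gene lengths), S100a8 averaged 70472 ± 3580 in inhibitor marrow and 28533 ± 8017 in vehicle marrow, and S100a9 averaged 67708 ± 4211 RPKM with inhibitor and 28007 ± 7454 RPKM with vehicle (SD, n = 3 each, as throughout). S100a11 followed at 1435 ± 326 RPKM with inhibitor and 960.2 ± 202 RPKM with vehicle, then S100a6 at 1294 ± 183 RPKM with inhibitor and 698 ± 93.4 RPKM with vehicle. S100a4 averaged 283 ± 56.5 RPKM with inhibitor and 262 ± 3.44 RPKM with vehicle. S100a10, S100a13 and S100a1 came last, in that order. S100a10 was at 217 ± 24.4 RPKM with inhibitor and 207 ± 68.1 RPKM with vehicle. S100a13 was at 52.4 ± 2.96 RPKM with inhibitor and 38.3 ± 1.90 RPKM with vehicle, and S100a1 at 52.2 ± 9.68 RPKM with inhibitor and 33.5 ± 4.19 RPKM with vehicle. The order of the 8 means was the same in both groups. Neighbours whose libraries overlapped in both groups were S100a8 with S100a9, S100a11 with S100a6, and S100a13 with S100a1, while S100a4 and S100a10 overlapped with vehicle alone. The step from S100a9 down to S100a11 was 47.2-fold with inhibitor and 29.2-fold with vehicle.

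**Figure D1:**
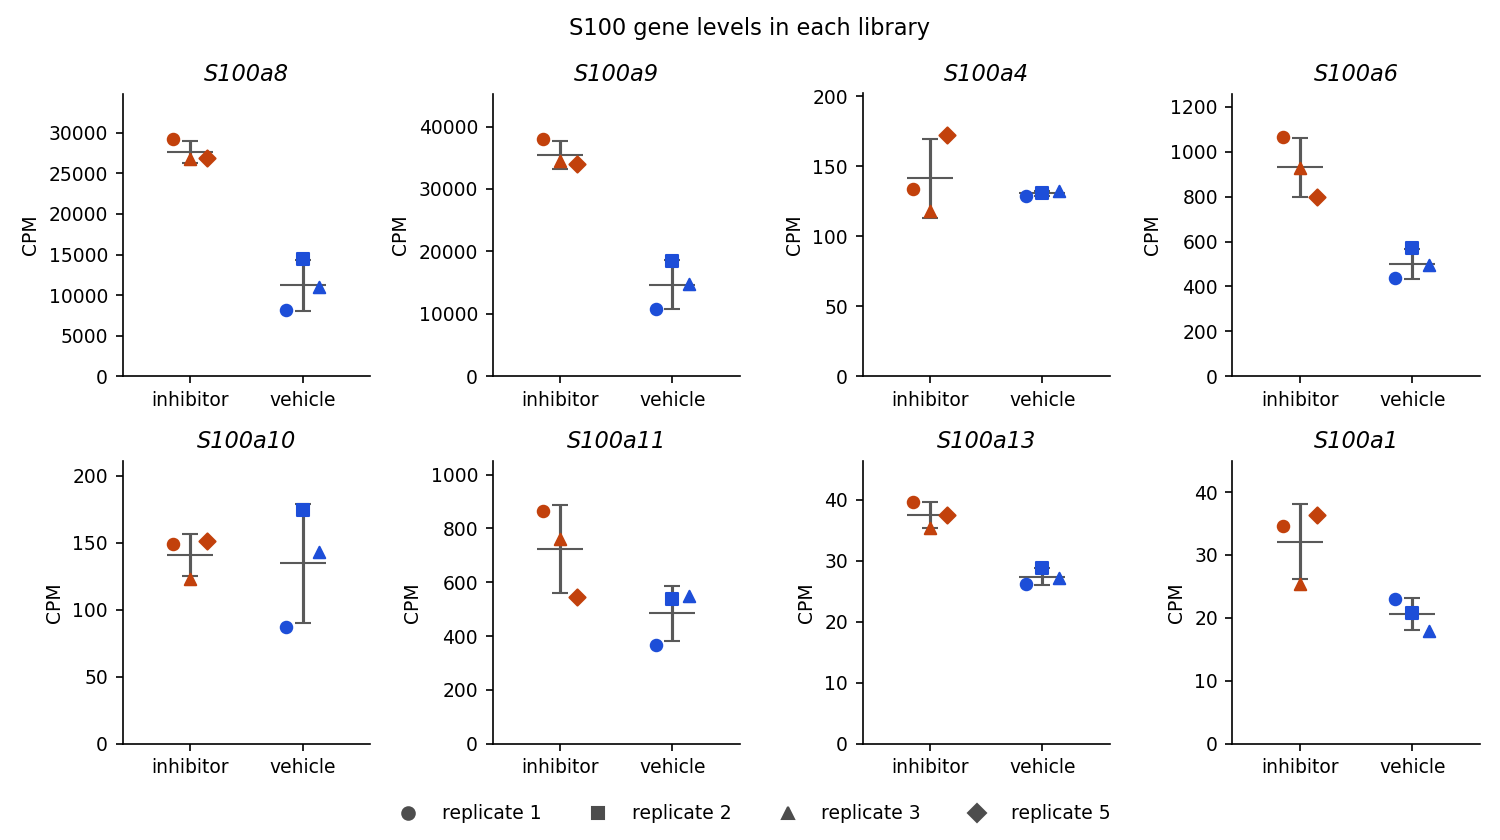
CPM of the 8 S100 genes in each library (points, shaped by replicate number) with the group mean and SD (n = 3 each), inhibitor left of vehicle and each panel on its own axis from 0. The groups stood apart for S100a8, S100a9, S100a6, S100a13 and S100a1 and overlapped for S100a4, S100a10 and S100a11.

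Inhibitor against vehicle asks how S100 RNA in Dnmt3a knockout marrow differed after the PI3Kalpha/beta inhibitor. All 8 genes passed the filter on low counts. None of the 8 passed an adjusted p under 0.05 in edgeR's quasi-likelihood test with Benjamini-Hochberg adjustment, where 1.83% of the 12806 tested genes passed, 0.633% as higher and 1.19% as lower (0.958% as higher among genes of at least 100 CPM). Taking p under 0.05 without adjustment, the same test gave 6 of the 8 as higher and 0 as lower, beside 9.68% higher and 11.9% lower among all tested genes. Of those 6, S100a11 was no longer under 0.05 without vehicle 1 (unadjusted p = 0.0783 in edgeR). In 5 of the 8 the inhibitor libraries all lay above the vehicle libraries, as did 14.4% of all tested genes and 16.4% of genes of at least 100 CPM. The log2 fold change, inhibitor over vehicle, was above 0 in 8 of 8 and its median was 0.61, beside 50% above 0 and a median of 0.00093 over all tested genes. DESeq2 called 5 of the 8 higher (S100a8, S100a9, S100a6, S100a13 and S100a1), where it called 4.9% of all genes higher and 7.23% lower. Without vehicle 1, edgeR called 4 of the 8 higher (S100a8, S100a9, S100a6 and S100a1), beside 3.1% of 12946 genes called higher and 4.89% lower.

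**Figure D2:**
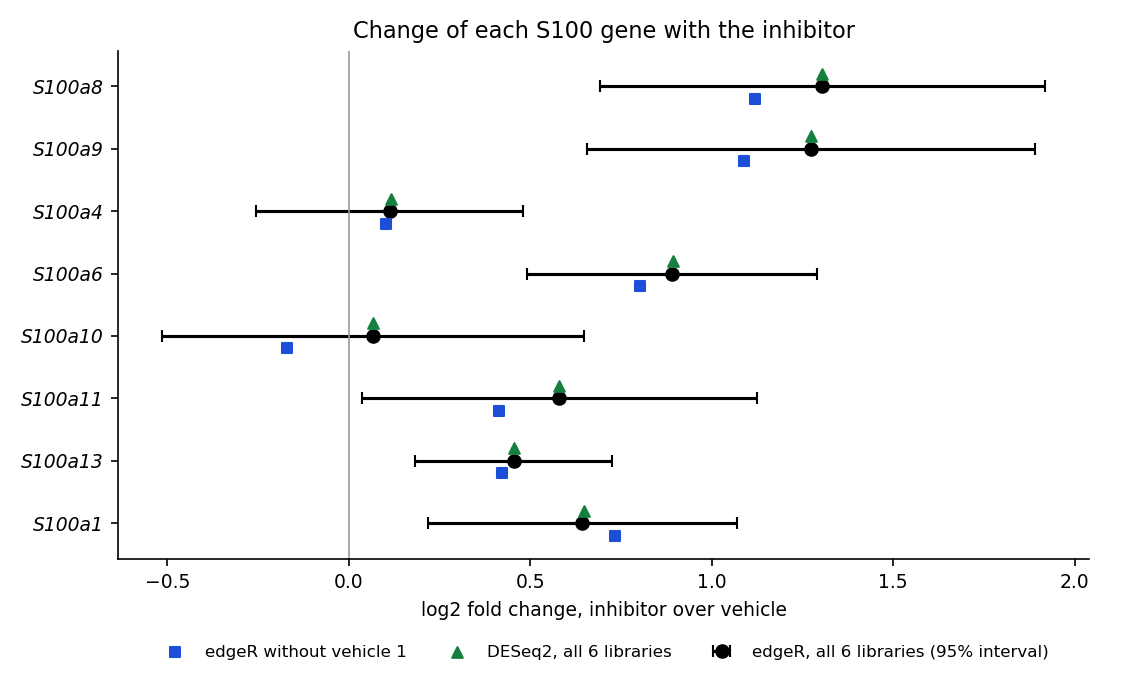
Log2 fold change of each S100 gene, inhibitor over vehicle, by edgeR with its 95% interval (circles), by DESeq2 (triangles) and by edgeR without vehicle 1 (squares). The intervals of S100a4 and S100a10 cross 0, and those of the other 6 genes lie above it.

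S100a8, the smaller subunit of calprotectin, had 29245, 26764 and 26867 CPM in inhibitor libraries 1, 3 and 5, against 8128, 14408 and 11019 CPM in vehicle libraries 1, 2 and 3. Its lowest inhibitor library was thus above its highest vehicle library, and vehicle 1 was the lowest of all. The means were 27625 ± 1404 CPM with inhibitor and 11185 ± 3143 CPM with vehicle, a ratio of 2.47. The log2 fold change was 1.30 ± 0.26 (SE), with a 95% interval of 0.69 to 1.92 and an adjusted p of 0.0563 in edgeR. Without vehicle 1 it was 1.12, with an adjusted p of 0.0266 in edgeR. DESeq2 gave an adjusted p of 3.69e-06 over all 6 libraries.

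S100a9, its partner subunit, which carries a long tail that adds a manganese site to the dimer, had 38016, 34412 and 34008 CPM in inhibitor libraries 1, 3 and 5, against 10691, 18498 and 14837 CPM in vehicle libraries 1, 2 and 3. The libraries fell in nearly the same order as for S100a8, with vehicle 1 lowest and vehicle 2 the highest of its group. The means were 35479 ± 2207 CPM with inhibitor and 14676 ± 3906 CPM with vehicle, a ratio of 2.42. The log2 fold change was 1.27 ± 0.26, with a 95% interval of 0.66 to 1.89 and an adjusted p of 0.0593 in edgeR. Without vehicle 1 it was 1.09, with an adjusted p of 0.0289 in edgeR, and DESeq2 gave 4.19e-06 over all 6 libraries. S100a9 had the highest count of all genes in every library, and S100a8 ranked between 2 and 4.

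Both genes together took 6.11%, 5.83% and 6.09% of all gene counts in inhibitor libraries 1, 3 and 5, against 1.96%, 3.45% and 2.74% in vehicle libraries 1, 2 and 3. The 95% Wilson interval of each share was at most 0.0173 percentage points wide, which covers counting error only. The mean share was 6.01 ± 0.155% with inhibitor and 2.71 ± 0.748% with vehicle, a difference of 3.29 percentage points. Every inhibitor library was above every vehicle library, and the two-sided exact permutation p was 0.1, the smallest that 3 against 3 libraries can give.

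The ratio of the subunits, in contrast to their amount, overlapped between the groups. Counts per base of S100a8 over S100a9 gave ratios of 1.03, 1.04 and 1.06 in inhibitor libraries 1, 3 and 5, and of 1.02, 1.04 and 0.993 in vehicle libraries 1, 2 and 3. The log2 ratio averaged 0.06 ± 0.02 with inhibitor and 0.02 ± 0.03 with vehicle, a difference of 0.03 (two-sided exact permutation p = 0.3). The level of the ratio, though not this difference, depends on the deposited lengths of 392 bases for S100a8 and 524 for S100a9. Annotated exons cover 694 and 522 bases, and raw counts gave ratios of 0.743 (vehicle 3) to 0.790 (inhibitor 5). Across the 6 libraries the centred log2 profiles of the pair differed by a root mean square of 0.0286, the closest of any 2 of the 8 genes.

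**Figure D3:**
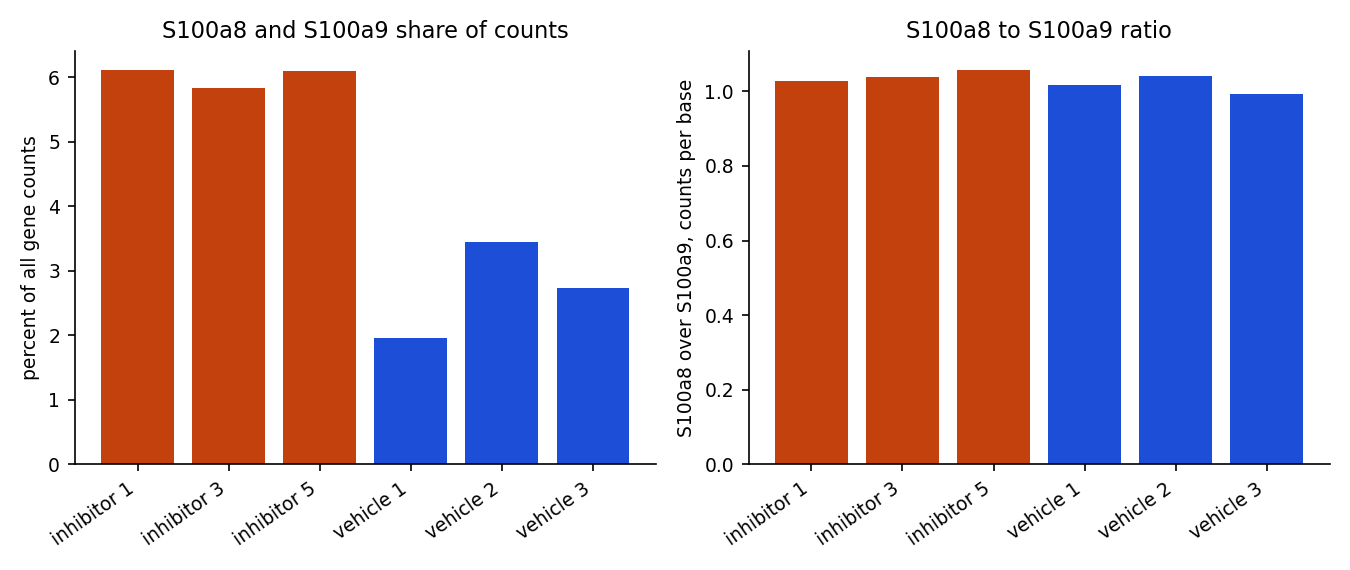
Left, percent of all gene counts that fell on S100a8 and S100a9 together in each library; right, the ratio of S100a8 to S100a9 counts per base, with both axes from 0 and inhibitor libraries left of vehicle libraries. The share was 5.83% to 6.11% with inhibitor and 1.96% to 3.45% with vehicle. On the deposited gene lengths the ratio stayed between 0.993 and 1.06.

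A list of 20 genes of late neutrophil development holds genes of granule proteins and of other proteins of these cells, and 19 of them were tested. They were Camp, Ltf, Ngp, Lcn2, Mmp8, Mmp9, Cd177, Retnlg, Chil3, Fcnb, Orm1, Itgb2l, Pglyrp1, Wfdc21 and Mcemp1, with the receptors Cxcr2 and Csf3r, the membrane protein Ifitm6 and the enzyme Padi4. Their log2 fold changes ran from 0.48 to 1.38 with a median of 0.77. In edgeR 2 of the 19 rose, Camp, the cathelicidin antimicrobial peptide (1.38 ± 0.23, adjusted p = 0.0420), and Wfdc21 (1.27 ± 0.23, adjusted p = 0.0473), beside 0.633% of all tested genes. With DESeq2, 12 of the 19 were called higher, beside 4.9% of all tested genes, and in 13 of the 19 every inhibitor library was above every vehicle library, beside 14.4% of all tested genes. Without vehicle 1 edgeR called 3 of the 19 (Camp, Wfdc21 and Fcnb), and without any other library it called none. Of the 19, only Camp had a larger fold change than S100a8 and S100a9. On log2(CPM + 1), S100a8 stood 4.09, 4.16 and 4.57 above the mean of the late neutrophil genes in inhibitor libraries 1, 3 and 5, against 3.82, 3.89 and 3.51 in vehicle libraries 1, 2 and 3. That is a difference of 0.53 for S100a8, and for S100a9 it was 0.50, with no overlap between groups in either. Each had a two-sided exact permutation p of 0.1, the smallest possible here.

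**Figure D4:**
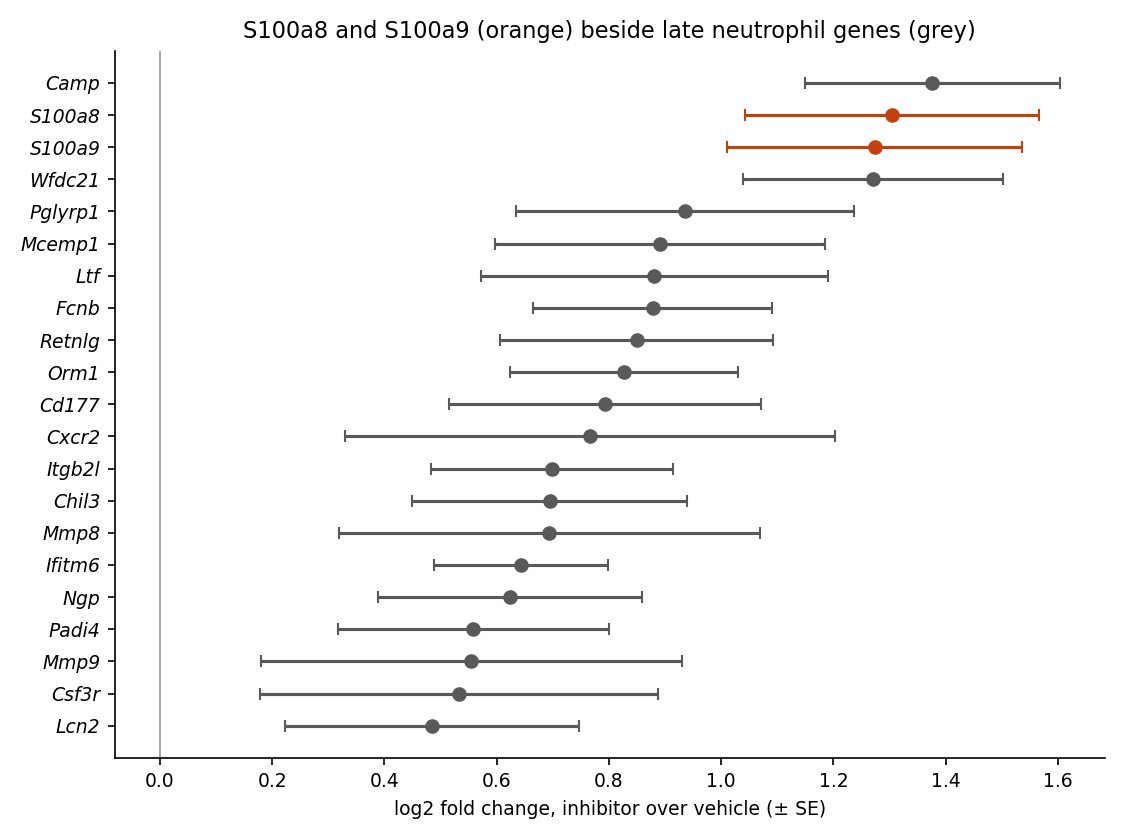
Log2 fold change (inhibitor over vehicle, edgeR, bars are SE) of S100a8 and S100a9 in orange and of 19 late neutrophil genes in grey, ordered by size. Camp lies above S100a8, Wfdc21 just below S100a9, and the other 17 genes lower, down to Lcn2 at 0.48.

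S100a6 (calcyclin), which binds annexins and the ubiquitin ligase adaptor Cacybp and is linked to cell growth, had 1064, 927 and 800.0 CPM in inhibitor libraries 1, 3 and 5, against 438, 572 and 495 CPM in vehicle libraries 1, 2 and 3. The groups stood apart. The log2 fold change was 0.89 ± 0.17, with a 95% interval of 0.49 to 1.29 and an adjusted p of 0.0537 in edgeR. It was 0.80 without vehicle 1, with an adjusted p of 0.0313 in edgeR, and DESeq2 gave 8.74e-05 over all 6 libraries. S100a6 had the smallest unadjusted p of the 8 genes, ranking 255 among all tested genes by p, against 319 for S100a8 and 357 for S100a9.

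S100a11 (calgizzarin), which binds annexin A1 and takes part in membrane repair, had 865, 762 and 543 CPM in inhibitor libraries 1, 3 and 5, against 367, 537 and 548 CPM in vehicle libraries 1, 2 and 3. Inhibitor 5 lay just below vehicle 3, so the groups overlapped. Its log2 fold change was 0.58 ± 0.23, with a 95% interval of 0.04 to 1.12 and an adjusted p of 0.207 in edgeR. Without vehicle 1 it was 0.41. The unadjusted p in edgeR was 0.0396 with all 6 libraries and 0.0783 without vehicle 1. It was also above 0.05 without inhibitor 1 (0.138), inhibitor 3 (0.107) or vehicle 2 (0.0528), and below it without inhibitor 5 (0.0153) or vehicle 3 (0.0468). The annotation holds a processed pseudogene of S100a11 on chromosome 12 (73961142 to 73961447), and whether it shares reads with S100a11 was not tested.

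S100a4 (metastasin), which binds non-muscle myosin and is linked to cell movement, had 133, 118 and 172 CPM in inhibitor libraries 1, 3 and 5, against 129, 131 and 132 CPM in vehicle libraries 1, 2 and 3. The vehicle libraries lay within the range of the inhibitor libraries. edgeR gave a log2 fold change of 0.11 ± 0.16, with a 95% interval of -0.26 to 0.48 and an adjusted p of 0.705 in edgeR. Another annotated gene on the same strand, Gm42674, shares 302 exon bases with S100a4, so the S100a4 count is uncertain.

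S100a10 (p11), which holds annexin A2 at membranes and has lost the ability to bind calcium, had 149, 123 and 151 CPM in inhibitor libraries 1, 3 and 5, against 86.9, 174 and 143 CPM in vehicle libraries 1, 2 and 3. The lowest and the highest library were both vehicle libraries. Its log2 fold change was 0.07 ± 0.25, with a 95% interval of -0.51 to 0.65 and an adjusted p of 0.898 in edgeR. Without vehicle 1 it was -0.17, so its direction rests on that library.

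S100a13, which helps to export Fgf1 and Il1a from cells by a route that bypasses the secretory pathway, had 39.6, 35.4 and 37.5 CPM in inhibitor libraries 1, 3 and 5, against 26.1, 28.8 and 27.2 CPM in vehicle libraries 1, 2 and 3. The groups stood apart with little spread in either. By edgeR the log2 fold change was 0.45 ± 0.12, with a 95% interval of 0.18 to 0.73 and an adjusted p of 0.0844 in edgeR. DESeq2 gave an adjusted p of 0.0106.

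S100a1, best known from heart and skeletal muscle, where it tunes calcium release and uptake, had 34.7, 25.3 and 36.4 CPM in inhibitor libraries 1, 3 and 5, against 23.1, 20.7 and 17.9 CPM in vehicle libraries 1, 2 and 3. Inhibitor 3 was only just above vehicle 1. By edgeR the log2 fold change was 0.64 ± 0.18, with a 95% interval of 0.22 to 1.07 and an adjusted p of 0.103 in edgeR. It was 0.73 without vehicle 1 (adjusted p = 0.0495 in edgeR), and DESeq2 gave an adjusted p of 0.0231. S100a1 and S100a13 start 105 bases apart in opposite directions, and their annotated exons share no bases. The kit does not mark strand, and whether reads near both starts were assigned correctly was not tested.

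The log2 fold changes of the 8 genes ran from 0.07 for S100a10 to 1.30 for S100a8 in edgeR. The log2 ratio of each gene to S100a8 was taken within a library, and its inhibitor minus vehicle difference was -1.25 for S100a4, -1.22 for S100a10, -0.89 for S100a13, -0.77 for S100a11, -0.71 for S100a1 and -0.45 for S100a6. Without vehicle 1 the difference for S100a1 was -0.41. In these 6 the inhibitor libraries all lay below the vehicle libraries, with a two-sided exact permutation p of 0.1 each, the smallest possible (0.117 adjusted over the 7 ratios). S100a8 had the largest log2 fold change of the 8, so the negative sign follows from taking S100a8 as the reference. All 7 ratios also share the same S100a8 values, so they are not separate results. For S100a9 the difference was -0.03 (exact permutation p = 0.3). Counted per length, S100a8 and S100a9 were 97.5%, 97.6% and 97.9% of the RNA of the 8 genes in inhibitor libraries 1, 3 and 5, against 95.8%, 96.7% and 96.0% in vehicle libraries 1, 2 and 3.

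The other 5 S100 genes in the table were scarce, at most 56 counts in any library. S100a2 was not tested, having 3 to 8 counts per library. S100a3 (0.77 ± 0.69, adjusted p = 0.551), S100a7a (0.83 ± 0.62, adjusted p = 0.470), S100a16 (-0.06 ± 0.65, adjusted p = 0.969) and S100b (-1.09 ± 0.76, adjusted p = 0.438) did not pass edgeR's test. S100b, a glial S100 gene, had 46 counts in vehicle 1 and 10 and 16 in the other vehicle libraries. Without vehicle 1 the log2 fold changes were 0.30 for S100a3, 0.41 for S100a7a, 0.90 for S100a16 and 0.09 for S100b.

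Receptors and binding partners of S100 proteins were listed with results of these data known. The median log2 fold change of the 13 receptors and receptor subunits tested was -0.03. Of these 13, 1 rose and 0 fell in edgeR, beside 0.633% higher and 1.19% lower among all tested genes. The 1 was Mcam, an adhesion molecule described as an S100a8/S100a9 receptor, with 40.5, 26.5 and 18.6 CPM in inhibitor libraries 1, 3 and 5, against 5.64, 7.84 and 7.96 CPM in vehicle libraries 1, 2 and 3. Its groups stood apart, with a log2 fold change of 1.99 ± 0.31 and an adjusted p of 0.0402 in edgeR. Cd14, a co-receptor of Tlr4, had 47.3, 58.5 and 56.5 CPM in inhibitor libraries against 414, 39.6 and 61 CPM in vehicle libraries, and its log2 fold change of -1.66 ± 0.82 became 0.10 without vehicle 1. Ly96, which lets Tlr4 bind its ligand, was at -0.48 ± 0.26 (adjusted p = 0.317), and Cd69, a lymphocyte activation antigen to which S100a8/S100a9 binds, was at 0.53 ± 0.34 (adjusted p = 0.406), both in edgeR. Without vehicle 1 Cd69 was at 0.26.

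Of 14 binding partners tested, none passed edgeR's test. Without adjustment of p, 2 of them were higher and 5 lower by edgeR (p under 0.05), beside 9.68% and 11.9% of all tested genes. DESeq2 called 1 higher and 4 lower, beside 4.9% and 7.23% of all tested genes. Anxa1, the partner of S100a11, was at 1.09 ± 0.23 on the log2 fold scale (adjusted p = 0.0625), and Anxa6, which S100a6 binds, was at -0.58 ± 0.11 (adjusted p = 0.0531), both in edgeR. The 2 cargoes of S100a13 were lower in every inhibitor library than in any vehicle library. Fgf1 was scarce, at 7, 11 and 17 counts in inhibitor libraries 1, 3 and 5 and 72, 67 and 65 in vehicle libraries 1, 2 and 3. Fgf1 had 0.228, 0.409 and 0.481 CPM with inhibitor against 2.05, 1.85 and 1.03 CPM with vehicle (-2.12 ± 0.44, adjusted p = 0.0593), and Il1a had 1.3, 1.3 and 1.5 CPM with inhibitor against 26.7, 3.34 and 5.16 CPM with vehicle (-3.09 ± 0.79, adjusted p = 0.0852), both in edgeR. Vehicle 1 had the highest Il1a level, and without that library the log2 fold change of Il1a was -1.64 (adjusted p = 0.0145 in edgeR). Fgf1, Anxa1 and Anxa6 were also called by edgeR without vehicle 1, at -1.92 (adjusted p = 0.0406), 0.92 (adjusted p = 0.0365) and -0.63 (adjusted p = 0.0166).

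Another list held 9 transcription factors that act on these genes or on myeloid maturation. Of these 9, 1 rose and 0 fell in edgeR, beside 0.633% higher and 1.19% lower among all tested genes. It was Gfi1, a repressor needed to form neutrophils, with 85.2, 75.7 and 74.1 CPM in inhibitor libraries 1, 3 and 5, against 27.5, 40.3 and 40.3 CPM in vehicle libraries 1, 2 and 3 (log2 fold change 1.12 ± 0.17, adjusted p = 0.0402). Cebpe, which drives granule genes, was at 1.22 ± 0.35 (adjusted p = 0.105), Cebpd at 0.67 ± 0.32 (adjusted p = 0.273) and Hif1a, the hypoxia factor, at -0.49 ± 0.19 (adjusted p = 0.190) in edgeR. Without vehicle 1, Cebpe was at 0.89 and called (adjusted p = 0.0137 in edgeR), while Cebpd was at 0.38 and Hif1a at -0.30. Both calls in these lists were lost when any library but vehicle 1 was left out, with adjusted p of 0.0633 to 0.136 for Mcam and 0.0596 to 0.160 for Gfi1.

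Of 15 EF-hand genes outside the family, none passed edgeR's test. Without adjustment of p, 4 of them were higher and 1 lower by edgeR (p under 0.05), beside 9.68% and 11.9% of all tested genes. DESeq2 called 1 higher, beside 4.9% of all tested genes. Sri (sorcin), a penta-EF-hand protein, was at 0.64 ± 0.13 (adjusted p = 0.0558; 0.61 and 0.0370 without vehicle 1) and Pef1, of the same family, at 0.45 ± 0.18 (adjusted p = 0.210) in edgeR. Calm2, a calmodulin gene, was at 0.31 ± 0.12 (adjusted p = 0.196), and Calu, which works in the secretory pathway, at -0.39 ± 0.13 (adjusted p = 0.133). The median of the 15 was 0.16, below the 0.61 of the 8 S100 genes.

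Markers of several marrow cell types differed between the groups alongside the S100 genes, and their part in the results was not tested. The late neutrophil genes summed to 51429 to 74651 CPM in inhibitor libraries and 28109 to 43891 CPM in vehicle libraries. The 10 early neutrophil genes, such as Mpo and Elane of the primary granules, summed to 7797 to 8706 CPM with inhibitor and 4047 to 6009 CPM with vehicle. Of these 10, edgeR called 1 higher (Elane) and 1 lower (Ctsc), and DESeq2 called 7 higher and 1 lower. Of all tested genes, edgeR called 0.633% higher and 1.19% lower, and DESeq2 called 4.9% higher and 7.23% lower. Without vehicle 1 edgeR called 6 of the 10 higher and 1 lower, beside 3.1% and 4.89% of all tested genes.

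Macrophage and monocyte genes ran the other way. The 20 macrophage genes summed to 1055 to 1386 CPM with inhibitor and 2907 to 10612 CPM with vehicle. Of these 20, edgeR called 7 lower, DESeq2 called 18 lower, edgeR without vehicle 1 called 17 lower, and in 19 every inhibitor library was below every vehicle library, beside 16.2% of all tested genes. The 16 monocyte genes summed to 2416 to 3252 CPM with inhibitor and 3593 to 4459 CPM with vehicle. Of these 16, edgeR called 5 lower, DESeq2 called 9 lower, edgeR without vehicle 1 called 12 lower, and 10 had groups apart in that direction. All 9 MHC class II genes were lower in every inhibitor library than in any vehicle library. Of these 9, 1 was called lower by edgeR, 8 by DESeq2 and 7 by edgeR without vehicle 1. Of all tested genes, edgeR called 1.19% lower, DESeq2 called 7.23% lower, and edgeR called 4.89% lower without vehicle 1.

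Of 14 B-lymphoid genes, edgeR called 3 higher, DESeq2 called 12 higher and edgeR without vehicle 1 called 8 higher. In 12 of the 14 the groups stood apart in that direction, beside 14.4% of all tested genes. Over all tested genes the shares called higher were 0.633% by edgeR, 4.9% by DESeq2 and 3.1% by edgeR without vehicle 1. The shares called lower were 1.19%, 7.23% and 4.89% in the same order. Of 11 eosinophil, basophil and mast cell genes, 3 were called higher by edgeR, 5 by DESeq2 and 4 by edgeR without vehicle 1. Among 15 T and NK cell genes edgeR called 1 lower, DESeq2 called 8 lower and 1 higher, and edgeR without vehicle 1 called 7 lower. Stromal genes had a median log2 fold change of -1.43 over the 11 tested, with 0 called by edgeR. At p under 0.05 without adjustment in edgeR, 6 of them were lower, beside 11.9% of all tested genes. DESeq2 called 4 lower and edgeR without vehicle 1 called 3 lower, where the median was -0.46. Neither edgeR nor DESeq2 called any of 12 erythroid or 10 megakaryocyte genes, and none of these had p under 0.05 in edgeR before adjustment. Without vehicle 1 the erythroid median was 0.11, against -0.50 with all libraries, and the megakaryocyte median was 1.45, against 0.75. The edgeR calls in all of these marker lists were lost without vehicle 3 or without any inhibitor library, and without vehicle 2 there were 7 calls in the macrophage, 4 in the monocyte, 1 in the early neutrophil and 1 in the eosinophil, basophil and mast cell list. No listed marker in the table was at 0 in all 6 libraries.

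**Figure D5:**
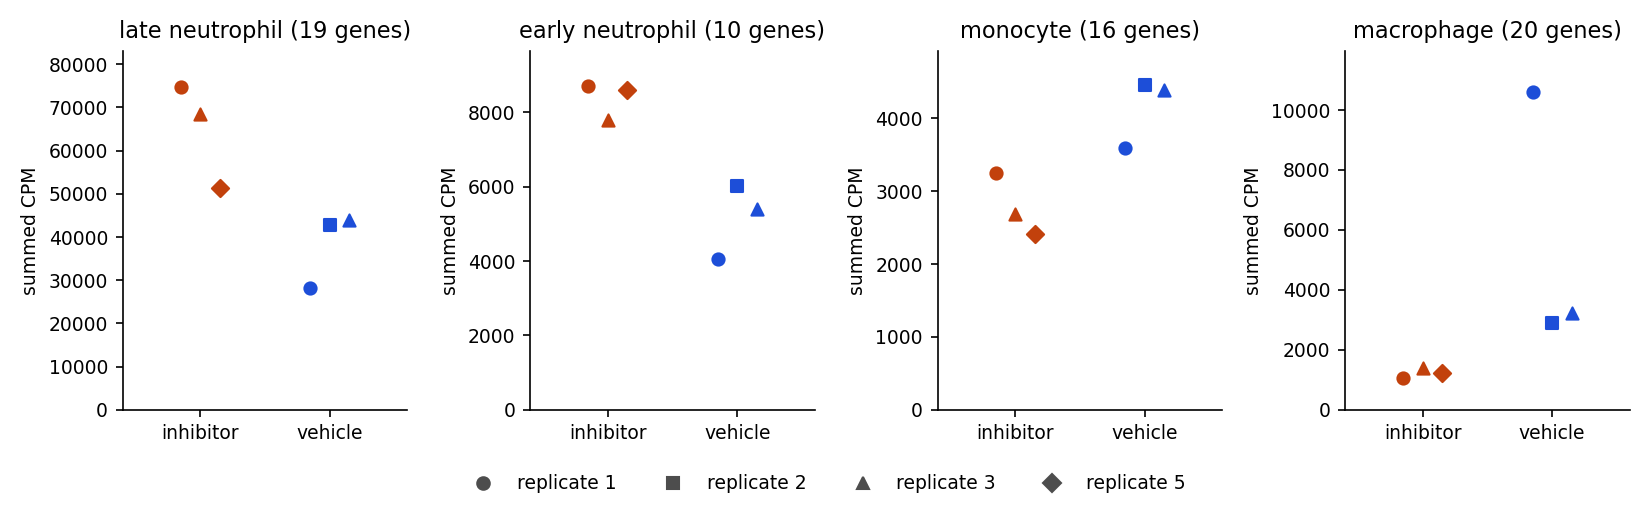
Summed CPM of late neutrophil, early neutrophil, monocyte and macrophage marker genes in each library (points, shaped by replicate number), inhibitor left of vehicle, each axis from 0. Both neutrophil sums were higher in every inhibitor library than in any vehicle library, the monocyte and macrophage sums were lower, and vehicle 1 had the highest macrophage sum.

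Genes whose profile over the 6 libraries was most like that of a member were found among 9505 genes by the root mean square difference of centred log2(CPM + 1), a description that carries no test. For S100a8 they were S100a9 (0.0286), Wfdc21 (0.0639) and Camp (0.0987), and for S100a9 they were S100a8 (0.0286), Wfdc21 (0.0478) and Stap2 (0.0840). For S100a6 they were Dstn, Prdx5 and Tst (0.0460 to 0.0760), and for S100a11 Triobp, Hp and Pygl (0.0260 to 0.0470). S100a13 was most like Rsrc2, Serf2 and Yaf2, S100a1 most like Fbxl12, Cep97 and H3f3a, S100a4 most like Stk38l, Prep and Foxp4, and S100a10 most like Dzip3, AI504432 and Slc25a13. Among the 8, S100a8 and S100a4 were least alike, at 0.688.

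The authors' deposited table gives its own adjusted p for these genes, which was below 0.05 for 5 of the 8. Among the 13809 genes with such a value, it was below 0.05 for 585 as higher and 907 as lower. In the authors' deposited table it was 8.16e-06 for S100a8, 9.40e-06 for S100a9, 0.000190 for S100a6, 0.0179 for S100a13 and 0.0253 for S100a1. For the others the authors' deposited table has 0.150 for S100a11, 0.780 for S100a4 and 0.928 for S100a10.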

How the data were processed

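RNA was measured in 6 mouse bone marrow libraries, 3 per group, made with SMART-Seq v4 and Nextera XT, per the labels' protocols. Per the submitters' processing notes, STAR aligned the reads to mm10 and featureCounts counted them, with no version given in the sources used here. Raw read counts per gene were deposited by the authors. The deposited table also holds gene lengths and the authors' fold change (a ratio), log2 fold change, p-value and adjusted p-value, from a test that no source used here names. Its 14992 empty lines were dropped.

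The main test was edgeR 4.0.16 (R 4.3.3) with glmQLFit and glmQLFTest on group alone after filterByExpr (12806 genes tested, 2186 left out) and TMM. Calls needed a Benjamini-Hochberg adjusted p under 0.05. Variation between libraries of a group, edgeR's biological coefficient of variation, was 25.2%. Whether it is biological or technical is not known. CPM used TMM-scaled library sizes. The fits were tested on simulated data. Alternatives were DESeq2 1.42.0, limma 3.58.1 voom with and without sample quality weights, other scalings, filters and thresholds, a replicate block, and leaving out each library. Leaving out libraries for the marker lists was chosen after seeing the data. Single ratios were compared by exact permutation over libraries. No 2 libraries were duplicates (smallest chi-square per degree of freedom 29.6).

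Members, lists and motifs were chosen with earlier results of these data known. Named genes were the 8 members, tested genes of the rest of the family, up to 4 genes of smallest p and every called gene in each of the receptor, partner, regulator and EF-hand lists, and the 3 genes most like each member (mean of at least 5 CPM). Other genes (cell type markers) were named after their values were seen. Family genes without a row in the table were not analysed here.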

Additional observations from a re-analysis of the deposited data

How the results depend on the processing

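Of 128 values of the 8 members under 16 alternatives, 102 kept their direction and side of the threshold, 21 passed a threshold that they had missed, and 5 turned sign. The 0 members called became 5 with DESeq2 and 5 with voom and quality weights. Of all 12806 tested genes, DESeq2 called 4.9% higher and 7.23% lower, and quality weights 10.7% higher and 11.6% lower. Members called were 3 with a filter of 5 CPM in 3 libraries, 4 at an adjusted p under 0.10, and 0 to 4 leaving out 1 library. Leaving out vehicle 1 gave 4 members, beside 3.1% of 12946 genes called higher and 4.89% lower. The 234 genes called in all, of 12806 tested, became 1554 with DESeq2, 85 with voom, 2857 with quality weights and 1056 at an adjusted p under 0.10. They became 251 with the 5 CPM filter, whose number of tested genes is not given here. Leaving out 1 library gave 0 to 1034 (1034 without vehicle 1, 91 without vehicle 2, 0 without any other). The 2 pathway genes called became 9 with DESeq2, 1 with voom, 17 with quality weights, 4 with the 5 CPM filter, 7 at the looser threshold and 0 to 8 leaving out 1 library (8 without vehicle 1). With the replicate block, 0 members, 7 genes in all and 0 pathway genes were called, and S100a8 was at 1.56 (adjusted p = 0.528 in edgeR); only replicate numbers 1 and 3 occur in both groups, so that fit rests on 4 libraries. Deviations from the group means correlated at -0.572 and -0.163 between libraries of the same number, and at -0.556 to 0.581 between libraries of unlike number. Deviations within a group depend on each other, so these values cannot decide whether the numbers pair libraries.

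Ranges in this paragraph cover only the fits that leave out 1 library. The sign of S100a4 turned with quality weights (-0.056), with the replicate block (-0.058) and without inhibitor 5 (-0.054, range -0.054 to 0.23). S100a10 turned with quality weights (-0.24) and without vehicle 1 (-0.17, range -0.17 to 0.30). S100a16 turned with voom (0.25), quality weights (0.63) and without inhibitor 1 (0.17), inhibitor 3 (0.10) or vehicle 1 (0.90), with a range of -0.50 to 0.90. With the replicate block S100a16 was at -0.52. S100b turned with quality weights (0.25) and without vehicle 1 (0.086; range -1.48 to 0.086), as did Cd14 (0.048 and 0.10; range -2.13 to 0.10). The cause was not tested. With 3 libraries per group, the exact tests of ratios cannot go below 0.1, so they cannot pass 0.05.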
